A study of Mus musculus with 92 samples.

Results

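Cytochrome P450 genes of families 1 to 3 were followed in the livers of female HET3 mice, animals of a genetically heterogeneous stock, at 2 ages on 3 diets. Members were all genes whose symbol begins with Cyp1, Cyp2 or Cyp3 and a subfamily letter, without Cyp2c70 and pseudogene names, and whose mean level over the 47 female libraries was at least 1 CPM (counts per 1e+06 counts of the library). This gave 29 members of the 17275 genes whose counts could be assigned, from 31 such genes before the level threshold. Another 16 symbols of these families were listed by the authors' deposited comparison tables but had no assignable counts. Just inside the threshold lay Cyp1b1, at 1.89 CPM, and just outside it Cyp2s1 at 0.69 and Cyp1a1 at 0.63 CPM.

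The mice ate a Control diet, a Low Amino Acid diet, in which amino acids as a whole were restricted, or a Low Isoleucine diet, in which isoleucine alone, an essential branched-chain amino acid, was restricted. They were kept near 22 °C and fasted for 16 h before the liver was frozen, and the degree of restriction was not given in the sources used here. Per the labels, the younger animals started their diet at 9 weeks and were killed at 6 months, and the older ones started at 6 months and were killed at 24 months, whereas the series description gives 13 weeks on diet. Age, age at the start of the diet and time on it therefore cannot be told apart. The 46 female libraries compared comprised 8 fed Control, 8 fed Low Amino Acid and 7 fed Low Isoleucine at 6 months, and 8, 7 and 8 on the same diets at 24 months. In the sample titles 19 of the 46 libraries share a number with another library of their group and differ by a final letter (L, N or R), which leaves 35 numbers, none of them in 2 groups. The labels do not say what a shared number means (a litter, a cage or something else), so these libraries may not be independent, and p-values measure the spread between libraries. Where summing the libraries of a number to 1 ended the call of a member, this is given beside it, an alternative chosen after seeing the data. Calls of genes that are not members were not examined in this or any other alternative fit.

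Cytochromes P450 of families 1 to 3 are haem enzymes of the endoplasmic reticulum that oxidise drugs, toxins, steroids and fatty acids, using electrons passed on by the reductase Por. Liver holds most of them, many in hepatocytes around the central vein. Receptors that act as transcription factors switch several of them on when their ligands arrive. Ahr acts on Cyp1a genes, Nr1i3 (the receptor CAR) on Cyp2b10 and Nr1i2 (the receptor PXR) on Cyp3a11. Several mouse members differ between the sexes under the control of pulsatile growth hormone, and many are known to fall when the liver mounts an acute phase response.

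The members lay in few places of the genome (GRCm38, GENCODE positions). On chromosome 7, 7 of them (Cyp2b10, Cyp2b13, Cyp2b9, Cyp2g1, Cyp2a5, Cyp2a12 and Cyp2f2) filled a stretch of 1.24 Mb from 25897620 to 27133660, with Cyp2e1 (chr7:140763739-140774987) and Cyp2r1 elsewhere on that chromosome. Chromosome 19 carried 7 Cyp2c genes between 39269405 and 44029208, chromosome 5 the 6 Cyp3a genes and chromosome 4 the 3 Cyp2j genes. Cyp1a2, Cyp1b1, Cyp2d26 and Cyp2u1 lay alone on chromosomes 9, 17, 15 and 3. The 250 bases before the RefSeq start (GRCm38.p6, plus strand) of 6 chromosome 7 genes are printed 5′ to 3′ because the results below return to these genes. RefSeq and GENCODE starts can differ, and the windows of Cyp2e1, Cyp2a5, Cyp2f2 and Cyp2b10 end inside the GENCODE gene. Cyp2e1 (chr7:140763569-140763818), Cyp2a5 (chr7:26835089-26835338) and Cyp2f2 (chr7:27119705-27119954) were lower in aged livers on more than 1 diet. Cyp2b9 (chr7:26173159-26173408), Cyp2b13 (chr7:26061245-26061494) and Cyp2b10 (chr7:25897408-25897657) are close relatives that did not all vary alike between animals. Capitals mark TATAAA (the TATA box), CAAAGTC (a core of the HNF4 element) and TTGCNNAA (a C/EBP element).
Cyp2e1: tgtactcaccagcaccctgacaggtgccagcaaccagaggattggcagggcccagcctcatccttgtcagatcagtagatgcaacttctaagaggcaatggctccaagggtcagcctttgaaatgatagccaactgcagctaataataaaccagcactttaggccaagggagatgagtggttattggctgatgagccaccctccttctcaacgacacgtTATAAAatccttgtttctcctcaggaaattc
Cyp2a5: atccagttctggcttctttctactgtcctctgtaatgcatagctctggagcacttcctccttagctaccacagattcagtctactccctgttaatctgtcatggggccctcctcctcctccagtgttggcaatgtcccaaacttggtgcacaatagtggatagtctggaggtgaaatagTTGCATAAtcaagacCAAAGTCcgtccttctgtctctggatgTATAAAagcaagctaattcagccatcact
Cyp2f2: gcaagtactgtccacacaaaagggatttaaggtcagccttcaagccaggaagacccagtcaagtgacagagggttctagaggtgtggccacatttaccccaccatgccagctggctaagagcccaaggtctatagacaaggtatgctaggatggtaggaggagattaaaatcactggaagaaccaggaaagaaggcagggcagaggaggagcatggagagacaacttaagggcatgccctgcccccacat
Cyp2b9: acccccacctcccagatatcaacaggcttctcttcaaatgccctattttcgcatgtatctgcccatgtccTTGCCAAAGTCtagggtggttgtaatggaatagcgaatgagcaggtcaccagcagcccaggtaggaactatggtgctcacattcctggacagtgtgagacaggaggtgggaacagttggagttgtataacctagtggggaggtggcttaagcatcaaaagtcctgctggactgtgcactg
Cyp2b13: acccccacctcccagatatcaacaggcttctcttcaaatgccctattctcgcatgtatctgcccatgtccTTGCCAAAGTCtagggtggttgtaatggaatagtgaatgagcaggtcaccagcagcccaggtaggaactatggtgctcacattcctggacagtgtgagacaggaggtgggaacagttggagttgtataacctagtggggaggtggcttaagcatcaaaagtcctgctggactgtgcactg
Cyp2b10: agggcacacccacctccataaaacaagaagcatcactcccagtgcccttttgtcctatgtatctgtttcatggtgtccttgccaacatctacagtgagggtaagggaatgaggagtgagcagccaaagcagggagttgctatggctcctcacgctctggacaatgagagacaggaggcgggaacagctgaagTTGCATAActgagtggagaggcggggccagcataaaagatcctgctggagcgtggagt

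The windows of Cyp2b9 and Cyp2b13 had 248 of 250 bases in common and differed by T48C and C104T (Cyp2b9 base first, positions counted from 1 at the 5′ end). The best alignment of Cyp2b9 with Cyp2b10 paired 240 bases, of which 182 (75.8%) were the same, while unrelated windows of the printed set gave shares of 64.7% to 73.9% over their own aligned bases. Cyp2e1 had a TATAAA 31 bases before the start, and Cyp2a5 had all 3 motifs, at 29 (TATAAA), 56 (CAAAGTC) and 71 (TTGCNNAA) bases before it. In Cyp2b9 and Cyp2b13 the TTGCNNAA and CAAAGTC overlapped, and in Cyp2b10 there was only a TTGCNNAA, 58 bases before the start. None of the 3 was found in the Cyp2f2 window.

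Over all members, 26 of 29 had a RefSeq window, and 8 motifs were searched on both strands in these and in 32851 windows of the same length. TATAAA occurred in 11 of the 26 members (42.3%) and 12.4% of all windows, CAAAGTC in 9 (34.6%) and 3.84%, TTGCNNAA in 7 (26.9%) and 9.56%, and TGTTTAC (a FOXA core) in 6 (23.1%) and 3.17%. CCAAT was found in 10 (38.5%) against 33.8%, GTTAAT (part of the HNF1 element) in 3 (11.5%) against 6.43%, TTANGTAA (an element of the PAR bZIP factors) in 1 (3.85%) against 2.06%, and TTCNNNGAA (the STAT5 element) in 0 of 26 against 7.02%. These are matches of letters, and members that arose by duplication, such as Cyp2b9 and Cyp2b13, are related sequences.

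Library totals over the assignable genes reached 27.6 M (M, 1e+06 counts) with a median of 22.6 M, and the lowest was 7.82 M (replicate 5 of the aged mice on Low Isoleucine), below the next at 14.3 M. Hepatocyte markers with counts (4 of 7 listed) summed to 68116 CPM or more in every library. A further library, labelled as replicate 3 of the 6-month Low Isoleucine females, was left out: it held 50.8 CPM of the Y-linked gene Kdm5d, against at most 0.639 CPM in any of the other 46. Related members share sequence, so their counts are uncertain. The share of 50-base runs of a member's transcript found in another gene of these families was 72.1% for Cyp2c40, 40.8% for Cyp2a5, 30.7% for Cyp2c50 and 30.1% for Cyp2c37. It was above 10% for 14 members, Cyp2b9 (10.8%), Cyp2b13, Cyp2c39 (11.4%), Cyp3a25 (26.8%) and Cyp3a59 (28.0%) among them, and 0 for 9, among them Cyp2e1, Cyp2f2, Cyp2c23, Cyp2r1 and Cyp1b1.

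Cyp2e1, which oxidises ethanol and acetaminophen, was by far the most abundant member, at a mean of 4948 CPM per kb of exons (all exons of a gene merged) over the 46 libraries. Cyp3a25 followed at 679, Cyp2d26 at 569.7, Cyp2a5 at 555, Cyp2b9 at 536, Cyp2c37 at 379 and Cyp2c39 at 373 CPM per kb. Cyp2r1 (1.5), Cyp2b10 (0.950) and Cyp1b1 (0.328 CPM per kb) closed the order. Cyp3a11 stood at 268 CPM per kb of merged exons, but at 583 per kb of its longest coding transcript, on which scale Cyp2e1 had 5825, Cyp3a25 707, Cyp2d26 601, Cyp2a5 572 and Cyp2b9 536, so its place in the order depends on the length used. From here on, 3 levels given for a group are its lowest, median and highest library, in CPM. The 29 members together made up 24551, 27823 and 30771 CPM in 6-month controls, 23423, 26300.2 and 29242 with Low Amino Acid and 22761, 28083 and 31566 with Low Isoleucine at that age. At 24 months the sums were 8446, 16905 and 24944 on Control, 10913, 21872 and 24966 with Low Amino Acid and 13378, 20362 and 25180.0 with Low Isoleucine. On each diet the median at 24 months lay below the lowest library at 6 months, and the widest range was that of the aged controls.

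**Figure D1:**
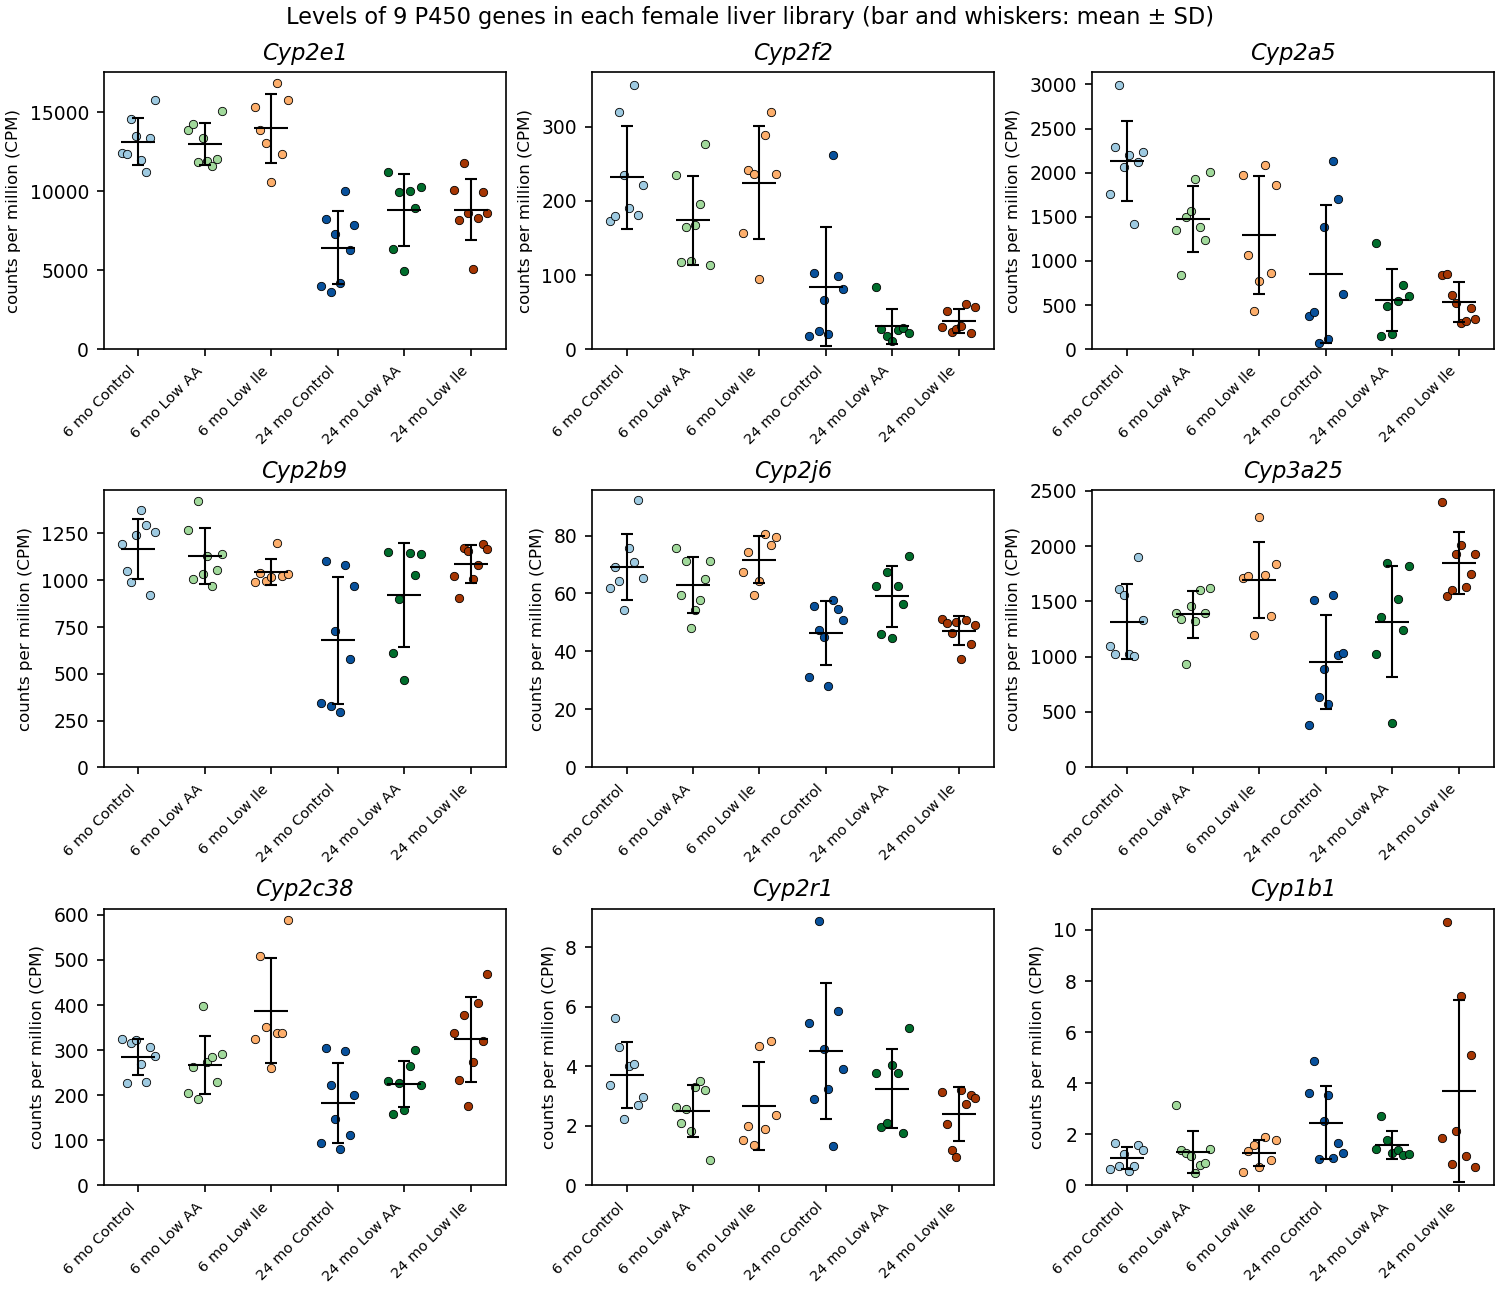
Level (CPM, linear axis from 0) of 9 members in the 6 groups of females (mo, months; AA, amino acid; Ile, isoleucine), with a point per library and a bar and whiskers for the mean and SD. Cyp2e1 in the aged controls (3590.4 to 10020.2 CPM) lay below all young controls (11198 to 15799.6), and Cyp2f2 on the restricted diets at 24 months lay below the same diets at 6 months.

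Among controls, the comparison of 24 with 6 months asked how age altered these enzymes on an unrestricted diet. Of the 29 members, 11 were lower and 1 was higher at 24 months by edgeR's quasi-likelihood test with Benjamini-Hochberg adjustment over all 12617 genes tested (called at an adjusted p under 0.05). Of all genes tested 28% were called, 16.7% higher and 11.4% lower, against 37.9% of members lower. The fitted log2 change was negative for 25 of 29 members, and its median was -0.54 over members and 0.03 over all genes tested. Low Amino Acid against Control at 6 months also gave 25 of 29 negative changes, with a median of -0.20 (0.001 over all genes) and 0 members called. Many members vary together between animals, so their signs are not independent and the count of signs is not read as a result. The members that fell included the most abundant one (Cyp2e1), 4 Cyp2c genes, Cyp1a2, Cyp2a5, Cyp2b9, Cyp2f2, Cyp2j6 and Cyp3a59, and the one that rose was Cyp1b1. All values here and below are fitted log2 changes with their standard errors (SE) unless levels are named. In whole liver, fewer cells of a type and less RNA per cell cannot be told apart.

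Cyp2e1 stood at 11198, 12908 and 15799.6 CPM in 6-month controls and at 3590.4, 6791 and 10020.2 CPM in 24-month controls. Every aged control lay below every young one, with replicates 3, 1 and 5 lowest (3590.4, 3990.1 and 4163 CPM). The fitted change was -1.07 (SE 0.17, adjusted p = 6.17e-05), or 0.475 times (95% interval of the log2 change -1.42 to -0.73) the young level. Cyp1a2, the Ahr target that metabolises caffeine and, like Cyp2e1, is known from pericentral hepatocytes, went from 203, 352 and 452 to 61.6, 232 and 411 CPM. Its groups overlapped, and the change of -0.83 (SE 0.31, adjusted p = 0.0362) was lost on leaving out any of 6 libraries (adjusted p up to 0.0868), namely young controls 1, 3 and 5 and aged controls 1, 3 and 5. Cyp2a5, the coumarin and nicotine hydroxylase, went from 1421, 2164 and 2993 to 72.3, 525 and 2128 CPM, and aged controls 3 and 5 held 72.3 and 113 CPM while aged control 6 held 2128. The groups overlapped and the change was -1.40 (SE 0.43, adjusted p = 0.0131). Its close relative Cyp2a4 shares part of its transcript and has no assignable counts, so the counts of the pair are uncertain.

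Cyp2f2, which activates naphthalene and in liver is known from periportal hepatocytes, had 173, 206 and 356 CPM in young and 17.2, 73.7 and 263 CPM in aged controls. Of the 8 aged controls, 7 were below every young control and replicate 6, at 263 CPM, was within their range. The change was -1.50 (SE 0.38, adjusted p = 0.00355). Cyp1b1, an oxidase of oestrogens and aromatic hydrocarbons that is scarce in liver, was at 0.552, 0.995 and 1.66 CPM in young and 1.05, 2.10 and 4.87 CPM in aged controls. The groups overlapped, and its change of 1.14 (SE 0.42, adjusted p = 0.0359) lost the call without any of 7 libraries (young controls 1, 3, 5 and 6 and aged controls 1, 2 and 5, adjusted p up to 0.0892).

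Of the 3 Cyp2b genes, 1 was called. Cyp2b9, which is known to be more abundant in female than male liver, had 919, 1218 and 1377 CPM in young and 297, 653 and 1101 CPM in aged controls, overlapping groups with a change of -0.83 (SE 0.19, adjusted p = 0.00157). Cyp2b13, whose printed promoter window is almost the same, had 193, 366 and 564 and 14.1, 251 and 645 CPM, with aged values on both sides of the young range, and a change of -0.48 (adjusted p = 0.402). Cyp2b10, the standard target of Nr1i3, was scarce, at 0.420, 1.41 and 4.40 and 0.0800, 0.631 and 5.78 CPM, with a change of -0.40 (adjusted p = 0.664).

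The Cyp2c genes make epoxides and hydroxylated products of fatty acids and oxidise many drugs, and 4 of 7 were called lower. Cyp2c50 went from 409.8, 623 and 873 to 153, 364 and 603 CPM, a change of -0.88 (SE 0.24, adjusted p = 0.00618). Cyp2c37 went from 519, 776 and 1134 to 102, 429.8 and 708 CPM, a change of -0.93 (SE 0.27, adjusted p = 0.00942). The groups of both overlapped, and in both the median aged control lay below the lowest young one. Cyp2c39, known as a retinoic acid hydroxylase, went from 326, 1029.6 and 1282 to 159, 329.5 and 874 CPM with a change of -1.28 (SE 0.40, adjusted p = 0.014), and is taken up again below because its libraries fell into separate ranges. That call was lost with limma-voom, -1.19 (adjusted p = 0.0598), and with libraries of a number summed, -1.18 (adjusted p = 0.0531). Cyp2c38 went from 228, 297 and 325 to 81.5, 174 and 306 CPM, -0.68 (SE 0.22, adjusted p = 0.0182), and lost the call without aged control 1 (adjusted p = 0.0513). Cyp2c29, which was not called, had 372, 565 and 728 and 264, 539.6 and 925 CPM, with a change of 0.01 (SE 0.22). In linear terms that was 1.0 times (95% interval of the log2 change -0.43 to 0.44) the young level.

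Cyp2j6, of a subfamily that oxidises arachidonic acid, went from 54.2, 67.3 and 92.4 to 28.2, 49.0 and 57.7 CPM. Of the 8 aged controls 3 reached the young range, and the change was -0.63 (SE 0.13, adjusted p = 0.000704). Of the 6 Cyp3a genes, the main drug oxidases, 1 was called: Cyp3a59 went from 48.9, 71.1 and 123 to 22.6, 35.1 and 59.2 CPM, -1.10 (SE 0.33, adjusted p = 0.0104). That call was lost with limma-voom, -0.92 (adjusted p = 0.0925), and with libraries of a number summed, -0.99 (adjusted p = 0.0614). Cyp3a25 had 1008, 1211 and 1897 and 380.1, 949.9 and 1554 CPM, -0.52 (SE 0.22, adjusted p = 0.0714), and missed the threshold. Cyp3a11, the standard target of Nr1i2, ranged over 540.1, 1145 and 3043 CPM in young and 136, 867 and 2658 CPM in aged controls, and its change of -0.54 (SE 0.50) corresponded to 0.688 times (95% interval of the log2 change -1.53 to 0.45) the young level. Cyp3a13 (-0.48, adjusted p = 0.431) and Cyp3a16 (-0.74, adjusted p = 0.251) were likewise not called. Cyp2r1, the vitamin D 25-hydroxylase, and Cyp2u1, a hydroxylase of long-chain fatty acids, had positive changes that were not called, 0.28 (SE 0.30) and 0.75 (SE 0.37).

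**Figure D2:**
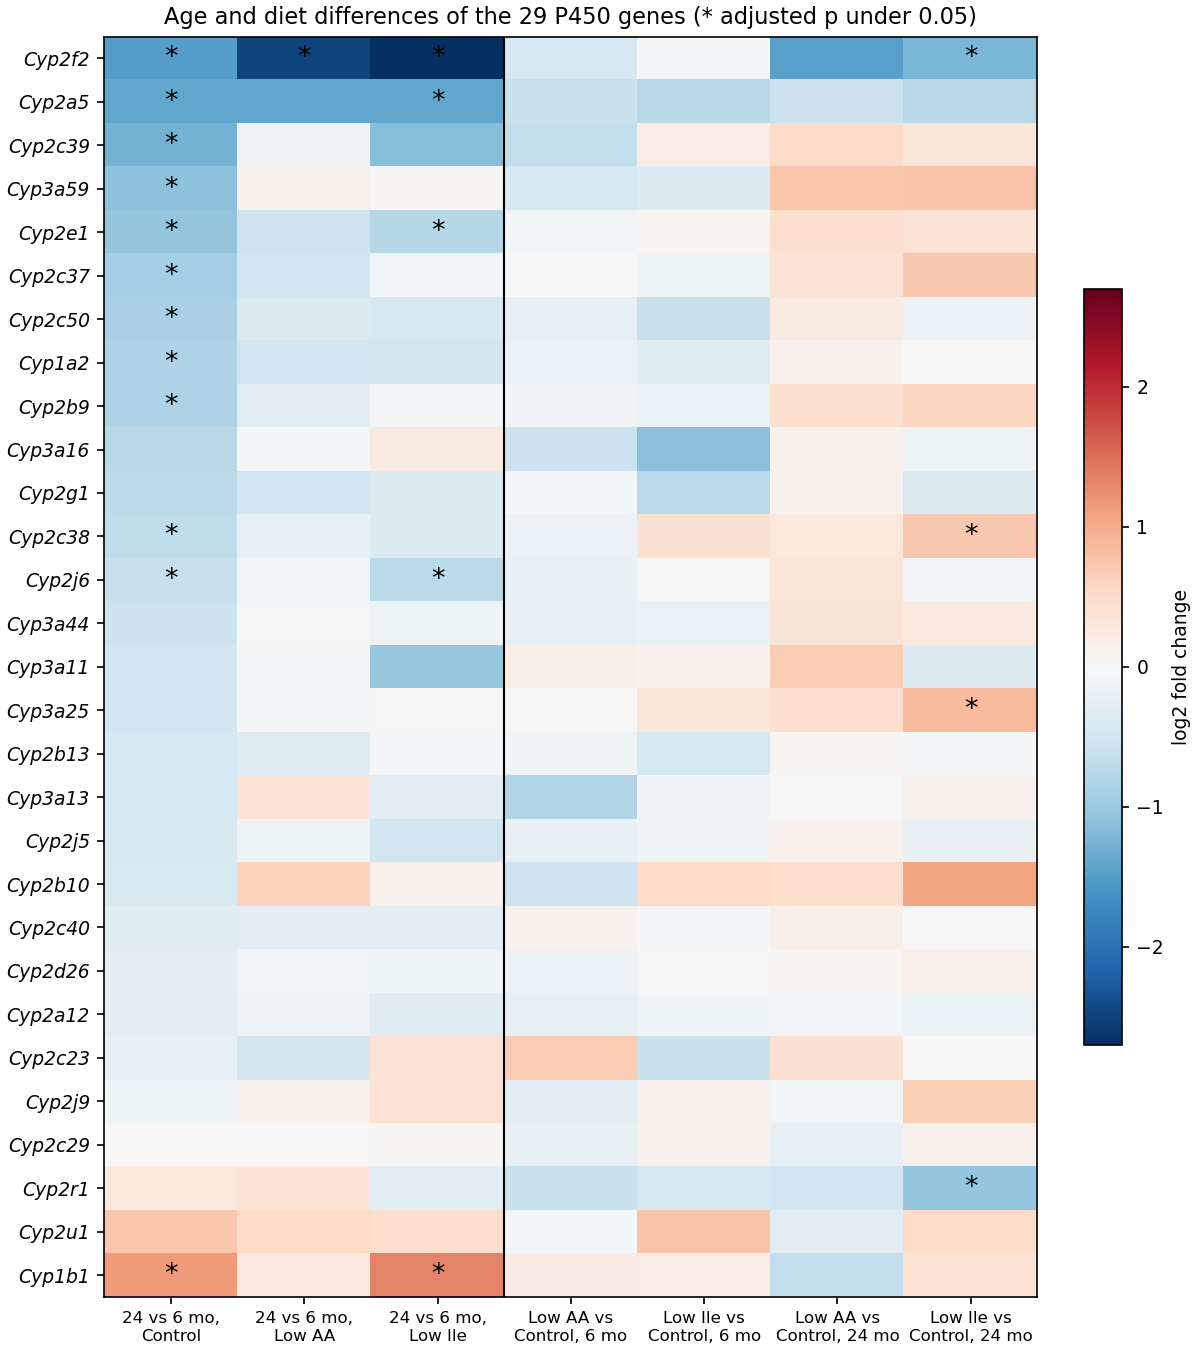
Fitted log2 fold change (colour scale) of the 29 members (rows) in 3 age and 4 diet comparisons (columns), by edgeR on 46 libraries, with an asterisk for an adjusted p under 0.05. The age comparison of controls holds most of the called members (11 lower, 1 higher), and Cyp2f2 is called lower with age on each of the 3 diets.

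The aged controls differed among themselves, and the genes of the acute phase response (24 listed, 22 with counts) differed with them. Of these, 19 of 22 were called higher in aged than in young controls, with a median log2 change of 1.71. Their summed level was 22636 to 28244 CPM in young and 26912 to 182163 CPM in aged controls. Markers of neutrophils (6 of 6 called higher, 3.10 to 8.22 CPM in young and 8.58 to 413 in aged controls), Kupffer cells (5 of 7, 239.6 to 634 and 201 to 2445) and lymphocytes (4 of 6, 2.94 to 6.13 and 4.19 to 119.6) moved the same way, while 0 of 4 hepatocyte markers were called (99465 to 158465 and 83332 to 142266 CPM). No marker of these 4 cell types was at 0 in all libraries of a group.

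Library by library, acute phase genes had a mean log2(CPM + 1) of 7.92 to 8.29 in young controls. Aged controls 1 and 5 stood highest, at 11.2 and 11.3. In them 23 and 20 of the 29 members lay below the range of the young controls, and the members summed to 8446 and 9536 CPM. Aged control 3, at 9.56, had 17 members below that range and a sum of 9804 CPM. Aged controls 8, 7 and 4, at 9.99, 9.67 and 8.79, had 8, 11 and 14 members below it and sums of 18451, 16214 and 17596 CPM, so the order of these libraries and of control 3 by acute phase genes was not their order by members. Aged controls 2 and 6, at 8.24 and 8.13, had 5 members each below it and sums of 21909 and 24944 CPM. The share of all genes below the range was 20.3% and 35.6% in aged controls 1 and 5, and 22% in aged control 3. It was 17.5%, 11.6% and 7.24% in aged controls 8, 7 and 4, and 10.8% and 15.6% in aged controls 2 and 6. Among aged mice on Low Amino Acid, replicates 2 and 4 (9.64 and 11.2, sums of 14895 and 10913 CPM) had the highest acute phase values and the lowest sums, and the other 5 had 8.27 to 9.13 and sums of 20999 to 24966 CPM. The part of the acute phase response in the members' change was not tested.

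Leaving out aged controls 1 and 5, a choice made after seeing the data, brought the called members to 7, all lower: Cyp2e1 (-0.93, adjusted p = 0.000851), Cyp2b9, Cyp2c37, Cyp2c50, Cyp2f2 (-1.17, adjusted p = 0.0229), Cyp2j6 and Cyp3a59. When single libraries were left out, the number called lay between 9 (without aged control 1) and 17 (without aged control 6). Shares of all genes called in these refits are not given here, so these numbers are not read as particular to the members. Of the 12, the other 5 kept their sign in the fit without aged controls 1 and 5 but not the call: Cyp2a5 -1.10 (adjusted p = 0.0667), Cyp2c39 -1.05 (adjusted p = 0.0765), Cyp1b1 0.85 (adjusted p = 0.176), Cyp1a2 -0.57 (adjusted p = 0.187) and Cyp2c38 -0.46 (adjusted p = 0.133). A fit of the control groups alone lost Cyp2a5 (adjusted p = 0.0598), Cyp1a2 (0.0741) and Cyp2c38 (0.0702). Cyp1b1 lost the call with limma-voom (adjusted p = 0.0811) and with libraries of a number summed (0.0802), where 9 members were called, all lower. The change of Cyp2a5 was -2.09 (adjusted p = 0.00123) with limma-voom.

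**Figure D3:**
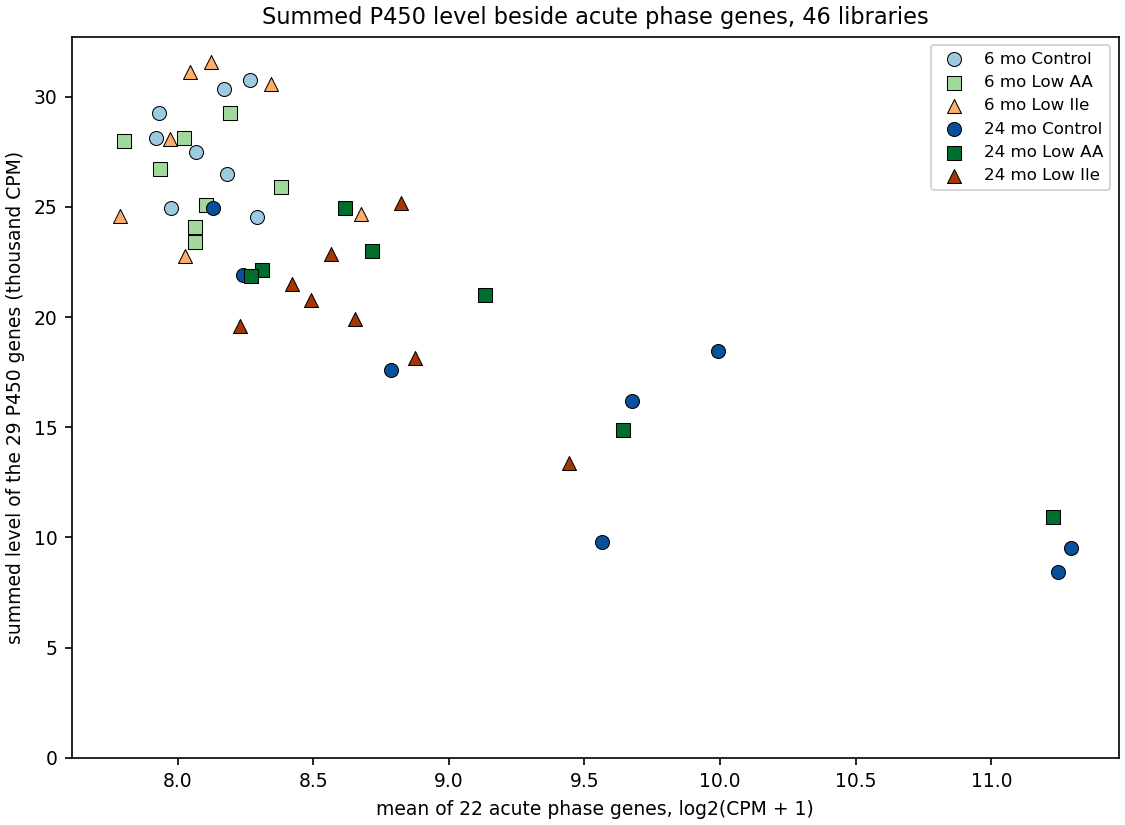
Summed level of the 29 members (vertical axis, CPM scaled as its label states) against the mean log2(CPM + 1) of 22 acute phase genes (horizontal axis), one point per library and one colour per group. The young libraries sit together at the left and top, and aged controls 1 and 5 sit at the right with sums of 8446 and 9536 CPM.

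On the restricted diets fewer members differed between the ages. On Low Amino Acid 1 of 29 was called lower and 0 higher (1.61% of all genes were called), and on Low Isoleucine 4 were lower and 1 higher (of all genes 7.34% were called, 2.44% lower and 4.90% higher). Cyp2f2 was the one member called lower with age on all 3 diets. On Low Amino Acid it had 114, 167 and 277 CPM at 6 and 11.5, 26.2 and 83.3 CPM at 24 months, and on Low Isoleucine 94.4, 237 and 320.4 and 21.2, 30.6 and 61.6 CPM. On neither diet did the ages overlap, and replicate 1 of the aged Low Amino Acid group, at 83.3 CPM, was the nearest. The changes were -2.50 (SE 0.42, adjusted p = 0.00087) and -2.68 (SE 0.41, adjusted p = 0.000143) by edgeR, or 0.177 times (95% interval of the log2 change -3.31 to -1.68) and 0.156 times (95% interval of the log2 change -3.48 to -1.88) the younger level. Cyp2a5 was called as well on Low Amino Acid with DESeq2, and with edgeR when that replicate 1 was left out, which made 2 members in each case.

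Cyp2e1 had 10606, 13876 and 16883 CPM at 6 and 5099, 8639 and 11826 CPM at 24 months on Low Isoleucine, groups that overlapped slightly, and its change was -0.78 (SE 0.18, adjusted p = 0.00652). On Low Amino Acid it had 11599, 12716 and 15119 and 4979, 9945 and 11238 CPM, groups that did not overlap, and a change of -0.55 (SE 0.18, adjusted p = 0.114) that was not called. Cyp2j6 on Low Isoleucine had 59.3, 74.3 and 80.4 and 37.3, 49.5 and 51.2 CPM, with no overlap and a change of -0.72 (SE 0.14, adjusted p = 0.00155). Cyp2a5 on Low Isoleucine had 436, 1065 and 2087 and 298, 496 and 857 CPM, -1.41 (SE 0.44, adjusted p = 0.041), and lost the call without any of 9 libraries (young replicates 1, 6 and 8 and aged replicates 2, 4, 5, 6, 7 and 8, adjusted p up to 0.101). Cyp1b1 had 0.543, 1.35 and 1.90 and 0.713, 2.0 and 10.3 CPM, 1.34 (SE 0.43, adjusted p = 0.0487), and lost the call in 30 of the 46 fits that each left out a library (adjusted p up to 0.192). With limma-voom its change was 0.54 (adjusted p = 0.346), and it was not called in the fit of the 2 groups alone (adjusted p = 0.135) or without a filter on low counts (0.0572). With libraries of a number summed neither Cyp1b1 (adjusted p = 0.19) nor Cyp2a5 (0.122) was called. Of the acute phase genes 8 of 22 were called higher with age with Low Amino Acid and 0 with Low Isoleucine (medians 1.17 and 0.30). Markers of immune cells also moved: with Low Isoleucine 4 of 6 lymphocyte markers (summed level 1.16 to 4.67 CPM at 6 and 5.27 to 52.2 at 24 months), 2 of 7 Kupffer cell markers (161 to 423 and 119 to 1444) and 1 of 6 neutrophil markers (3.54 to 9.86 and 3.48 to 106) were called higher, and with Low Amino Acid 2 of 6 neutrophil markers (4.79 to 12.2 and 6.04 to 257). Their part in the members' changes was not tested. Without replicate 1, 6 or 8 of the young or 2 or 5 of the aged Low Isoleucine group, 3 members were called in place of 5.

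At 24 months, Low Isoleucine against Control called 2 members higher and 2 lower, where 6.48% of all genes were called, 2.69% higher and 3.79% lower. Cyp3a25 had 380.1, 949.9 and 1554 CPM on Control and 1546, 1835 and 2402 CPM on Low Isoleucine. The lowest Low Isoleucine library was just under the highest control, and the change was 0.86 (SE 0.22, adjusted p = 0.0148), or 1.81 times (95% interval of the log2 change 0.42 to 1.29) the control level. Cyp2c38 had 81.5, 174 and 306 and 176, 329.6 and 468 CPM, overlapping groups with a change of 0.73 (SE 0.22, adjusted p = 0.0379). Cyp2r1, on the other side, had 1.34, 4.23 and 8.89 and 0.967, 2.83 and 3.20 CPM, overlapping groups with a change of -1.04 (SE 0.31, adjusted p = 0.0331). Cyp2f2 had 17.2, 73.7 and 263 and 21.2, 30.6 and 61.6 CPM, and control 6 alone, at 263 CPM, stood far above the next control at 103 CPM, with a change of -1.24 (SE 0.38, adjusted p = 0.0402).

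These 4 calls depended on the fit and on single libraries. A fit of the 2 groups alone called 0 of the 4 (adjusted p of 0.101 to 0.233). With limma-voom Cyp3a25 was the one of the 4 still called, and Cyp2r1 -1.09 (adjusted p = 0.0751), Cyp2c38 0.66 (adjusted p = 0.0874) and Cyp2f2 -0.89 (adjusted p = 0.142) were not. With libraries of a number summed Cyp2f2 was not called, -0.99 (adjusted p = 0.13), nor without the shallowest library (adjusted p = 0.0599). Without aged controls 1 and 5 only Cyp2f2 was called (-1.57, adjusted p = 0.00788), and Cyp3a25 fell short at 0.65 (adjusted p = 0.0648), Cyp2r1 at -1.04 (adjusted p = 0.052) and Cyp2c38 at 0.50 (adjusted p = 0.159). When single libraries were left out, Cyp3a25 kept its call in all 46 fits. Cyp2r1 lost it in 5 (controls 1, 3 and 7, Low Isoleucine replicates 3 and 4, adjusted p up to 0.103) and Cyp2c38 in 8 (controls 1, 4, 5 and 7, Low Isoleucine replicates 1, 3, 6 and 8, up to 0.0989). Cyp2f2 lost it in 9 (controls 2, 6, 7 and 8, Low Isoleucine replicates 1, 3, 4, 5 and 7, up to 0.217), with changes from -1.40 to -0.69. The number of called members lay between 1 and 6. This number was 1 without control 7 or Low Isoleucine replicate 3 and 2 without control 1 or Low Isoleucine replicate 1 or 4. Of the acute phase genes 14 of 22 were called lower on Low Isoleucine than on Control at this age, of the neutrophil markers 2 of 6 and of the Kupffer cell markers 0 of 7. Their summed levels on Low Isoleucine were 32546 to 47591, 3.48 to 106 and 119 to 1444 CPM, and their part in the members' changes was not tested.

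Low Amino Acid against Control at 24 months called 0 members by edgeR (0.745% of all genes were called), with 5 members at an unadjusted p under 0.05 (16.9% of all genes). DESeq2 called 1 and limma-voom 0. The member with the largest change was Cyp2f2, with 17.2, 73.7 and 263 CPM on Control, 11.5, 26.2 and 83.3 CPM on Low Amino Acid and overlapping groups, -1.46 (SE 0.40, adjusted p = 0.0616) by edgeR. It was the member DESeq2 called, and edgeR called it too without Control replicate 3 or 4, without Low Amino Acid replicate 1 and without aged controls 1 and 5. Cyp2e1 had 4979, 9945 and 11238 CPM on this diet and a change of 0.45 (adjusted p = 0.196). The 2 diets of the aged animals were compared with the same 8 control libraries, which also enter the age comparison, so a member's changes in these comparisons are not independent. Low Isoleucine against Low Amino Acid at 24 months called 0 members (1.25% of all genes), with 4 at an unadjusted p under 0.05 (15.8%), 0 by DESeq2 and 2 by limma-voom, which were Cyp2j9 and Cyp2j6.

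At 6 months no diet comparison called a member. Low Amino Acid against Control called 0 by edgeR, DESeq2 and limma-voom (0% of all genes by edgeR), and 0 members had an unadjusted p under 0.05, where 8.11% of all genes did. The largest changes were those of Cyp3a13 (-0.82, adjusted p = 0.629), with 47.4, 139 and 198 CPM on Control and 43.0, 56.2 and 143 on Low Amino Acid, and of Cyp2c23 (0.68, adjusted p = 0.8). The 2 groups overlapped for both. Low Isoleucine against Control called 0 members by all 3 tools (0.0238% of all genes by edgeR), with 3 at an unadjusted p under 0.05 (10.1% of all genes). Low Isoleucine against Low Amino Acid also called 0 by all 3 (0.0159%), with 3 at an unadjusted p under 0.05 (9.99%). Cyp2a5, with 1421, 2164 and 2993 CPM on Control, 839.8, 1442 and 2007 with Low Amino Acid and 436, 1065 and 2087 with Low Isoleucine, had a lower median on either diet within overlapping ranges, -0.60 (adjusted p = 0.712) and -0.75 (adjusted p = 0.613). Cyp2e1 was not called either, with changes of -0.08 (SE 0.17) and 0.07 (SE 0.18), or 0.947 times (95% interval of the log2 change -0.42 to 0.26) and 1.05 times (95% interval of the log2 change -0.28 to 0.42) the Control level.

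Whether a diet acted differently at the 2 ages was tested directly. The difference of the Low Amino Acid effects called 0 members and 0% of all genes by edgeR, with 4 members at an unadjusted p under 0.05 (10.3% of all genes), and that of the Low Isoleucine effects 0 members and 0%, with 4 (8.5%). The smallest adjusted p among members was 0.482 and 0.370, and DESeq2 and limma-voom called 0 in both. For Cyp3a25 the Low Isoleucine effect was 0.33 at 6 and 0.86 at 24 months, a difference of 0.53 (SE 0.32, adjusted p = 0.681). For Cyp2f2 it was -0.06 and -1.24, a difference of -1.18 (SE 0.54, adjusted p = 0.535).

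Of 14 tested genes for redox partners and haem supply, 5 were lower and 1 was higher in aged controls, where 11.4% of all genes were lower and 16.7% higher. Alas1, the rate-limiting first enzyme of haem synthesis, went from 705, 1219 and 1589 to 70.7, 420.5 and 1212 CPM, -1.16 (SE 0.36, adjusted p = 0.0134). With age it was lower also under Low Amino Acid (-1.47, adjusted p = 0.0275) and Low Isoleucine (-1.74, adjusted p = 0.00361). Fech and Urod, further steps of haem synthesis, changed by -0.27 (adjusted p = 0.0209) and -0.23 (adjusted p = 0.0358), and the electron carriers Cyb5a and Cyb5b by -0.50 (adjusted p = 0.0182) and -0.39 (adjusted p = 0.0375). Hmox1, which breaks haem down, rose from 8.54, 13.1 and 21.7 to 15.2, 40.2 and 137 CPM, 1.92 (adjusted p = 0.000238), and was lower on Low Isoleucine than on Control at 24 months, -1.09 (adjusted p = 0.0436). Por, the electron donor of all members, had 565, 814 and 1196 and 286, 592 and 826 CPM and a change of -0.52 (SE 0.20, adjusted p = 0.052), just outside the threshold.

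Of 27 transcriptional regulators tested, 7 were lower and 1 was higher in aged controls. The 8 called together are near the share over all genes (28% called). By direction they are not, with more lower and fewer higher than the shares over all genes (11.4% lower and 16.7% higher). Nr1i3 had 809, 897 and 1113 and 159.8, 563 and 1002 CPM, -0.85 (SE 0.24, adjusted p = 0.00832), and Nr1i2 had 99.8, 127 and 161 and 57.4, 97.9 and 117 CPM, -0.44 (SE 0.13, adjusted p = 0.008). Ahr fell by 0.46 (adjusted p = 0.0268). Among the receptor targets named above, the Ahr target Cyp1a2 was called lower (-0.83), a call lost on leaving out any of 6 libraries. The changes of Cyp2b10 (-0.40) and Cyp3a11 (-0.54) were negative too but were not called. Cyp1b1, the other member of family 1, was called higher (1.14), a call lost on leaving out any of 7 libraries. The relation of regulators to targets was not tested. Also lower among the regulators were the pioneer factor Foxa1 (-0.72, adjusted p = 0.00026), the PAR bZIP factors Hlf (-0.76, adjusted p = 0.000508) and Tef (-1.0, adjusted p = 0.0061), and Ppara (-0.64, adjusted p = 0.00247). Hnf4a (-0.06) and the oestrogen receptor Esr1 (0.02) had changes near 0 that were not called. Esr1 was lower on Low Isoleucine than on Control at both ages, -0.80 (adjusted p = 0.0388) at 6 and -0.77 (adjusted p = 0.00154) at 24 months, with 71.1, 88.8 and 104 and 42.2, 48.2 and 61.5 CPM at the younger and 47.7, 84.7 and 158 and 38.0, 61.2 and 72.5 CPM at the older age.

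In the same comparison (11.4% of all genes lower, 16.7% higher), of 23 conjugating (phase II) enzymes tested, 13 were lower and 1 was higher in aged controls, among them the sulfotransferases Sult1d1 (-1.17, adjusted p = 0.000908) and Sult2a8 (-1.10, adjusted p = 0.00114) and the glucuronosyltransferases Ugt2b37 (-2.59, adjusted p = 0.00141) and Ugt2b1 (-0.86, adjusted p = 0.00144). Of 13 carboxylesterases, flavin monooxygenases and related oxidases tested, 4 were lower, Fmo1 (-0.71, adjusted p = 0.00232), Aldh1a1, Fmo5 and Ces1d. Of 7 P450 genes of family 4, 4 were lower and 2 higher. The listed markers of liver zones, with no P450 among them, counted 7 lower and 2 higher of 17 pericentral genes. Of 18 periportal genes 2 were lower and 3 higher, and for these alone that is near the share over all genes. Of the members listed as female-biased 3 of 8 were lower and of those listed as male-biased 2 of 4. The acute phase values of the same libraries stand above, and their part in these changes was not tested.

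The members varied more between animals of one group than most genes did. The median over groups of the within-group SD of log2 CPM was 0.57 for the median member and 0.27 for the median of all 12617 genes, and 26 of 29 members were above the latter. Past the 95th percentile of all genes were 6 members: Cyp2c23 (1.51), Cyp2b10 (1.20), Cyp3a16 (1.09), Cyp3a13 (1.0), Cyp3a11 (0.97) and Cyp2c39 (0.84). The steadiest were Cyp2b9 (0.20) and Cyp2a12 (0.21). By group, the median member had an SD of 0.41 in young controls and 0.79 in aged controls, where the median gene had 0.27 and 0.36. Cyp3a11 shows the size of this spread: within young controls it ran from 540.1 to 3043 CPM, and within the aged Low Isoleucine group from 109 to 3311 CPM. HET3 animals differ in genotype, genotypes are not in the labels, and their part in this spread was not tested.

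**Figure D4:**
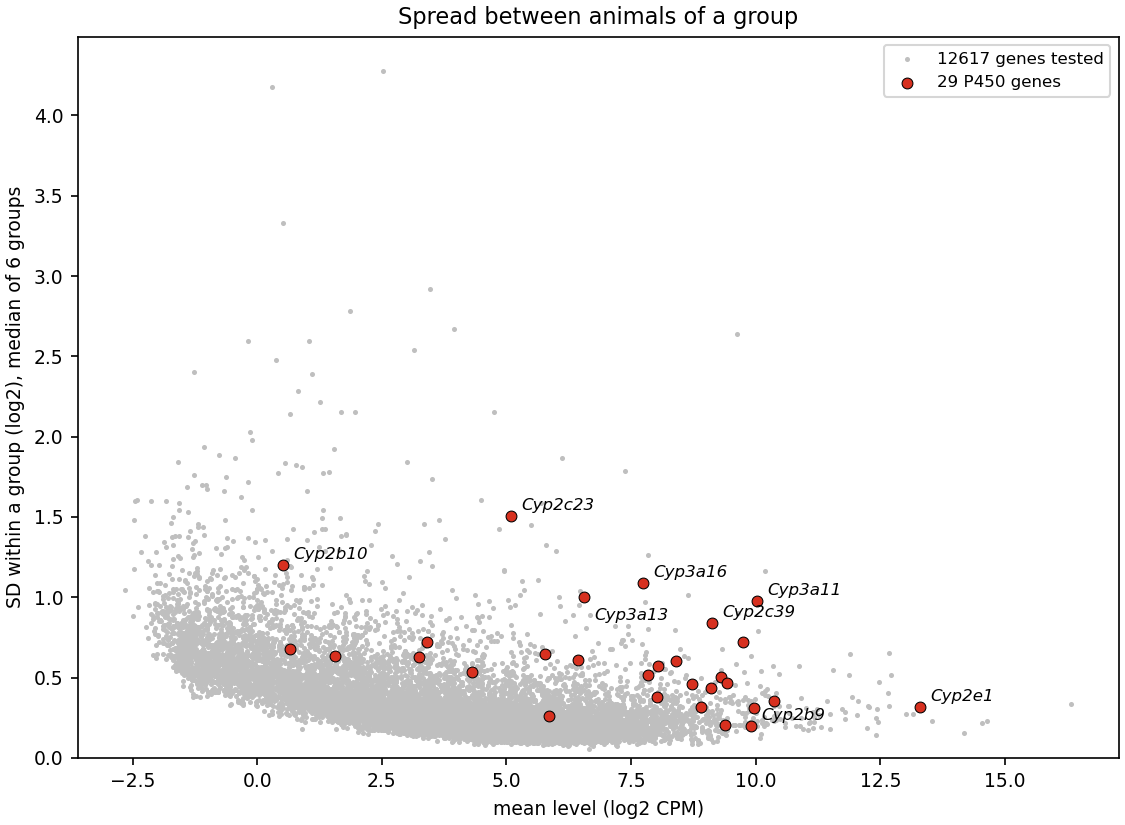
Within-group SD of log2 CPM (median over the 6 groups, vertical axis) against mean log2 CPM (horizontal axis) for all 12617 genes tested, with the 29 members marked. Members lie above the median gene (0.27) in 26 of 29 cases, and Cyp2c23 (1.51) and Cyp2b10 (1.20) are the highest.

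Cyp2c39 did not vary smoothly. Of the 46 libraries, 25 held 159 to 467 CPM and 21 held 699.9 to 1918 CPM, with none between, a step of 1.5 times. The gap came from a search for the widest step away from the ends of each member's order. Cyp2f2 had a wider one, of 1.66 times (31.3 to 51.9 CPM), with every 6-month library above it, so a gap is not particular to Cyp2c39. The upper range held 6 of 8 young controls, 3 of 8 young Low Amino Acid and 5 of 7 young Low Isoleucine libraries, and 2 of 8, 3 of 7 and 2 of 8 of the same diets at 24 months. Cyp2c23, which lies at the far end of the stretch of chromosome 19 given above and makes epoxides of arachidonic acid and shares no 50-base run with other members, was opposite: it held 23.5 to 178 CPM (median 71.2) in the 25 libraries low in Cyp2c39 and 7.15 to 31.7 CPM (median 13.4) in the other 21. Within the lower range of Cyp2c39 the levels of the pair had r = 0.461 (rho = 0.267, permutation p = 0.0196 and 0.198), which without the 2 libraries farthest from the median was 0.169 and so rested on them. Within the upper range r was -0.404 (rho = -0.503, permutation p = 0.0671 and 0.0216) and -0.374 without 2 libraries. Because the libraries fell into separate ranges, no r over all of them is given. The ranges were seen in the data and were not a group of the study. Each range mixed libraries of all 6 groups and was cut on Cyp2c39 itself. How the pair varied between animals of one group is therefore not read from these p-values.

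**Figure D5:**
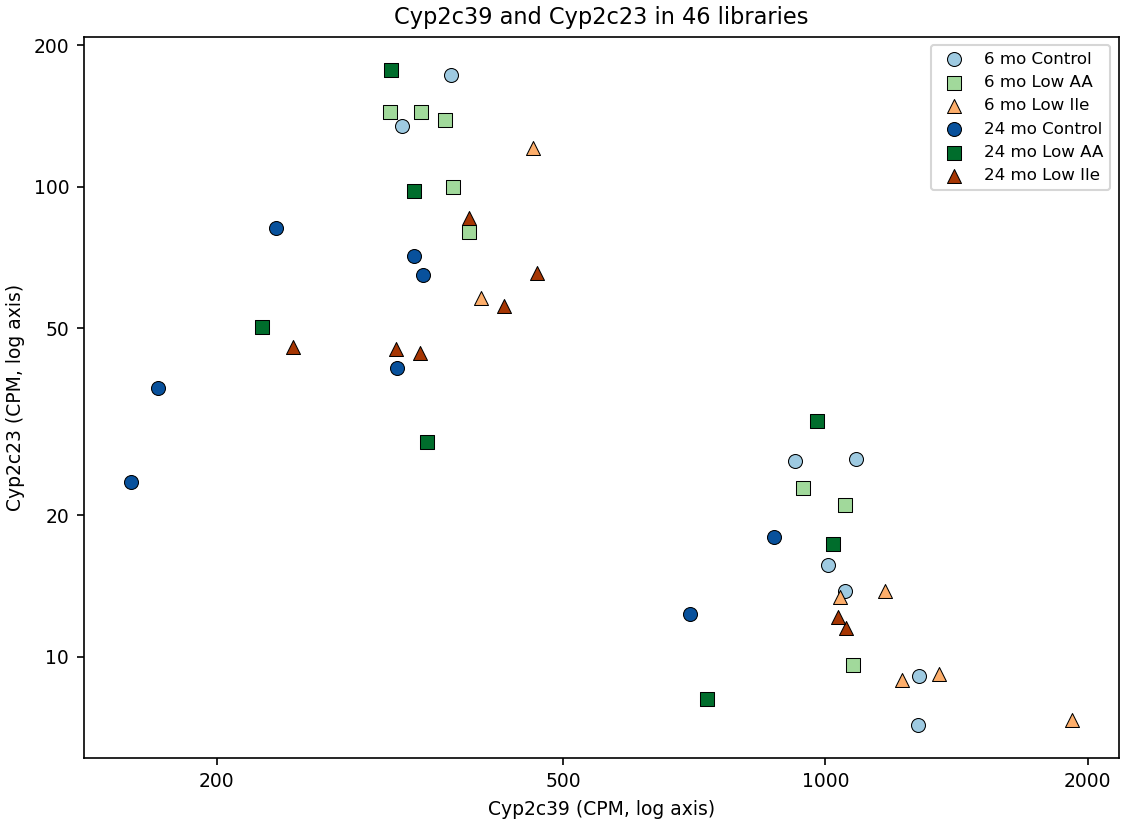
Level of Cyp2c23 against that of Cyp2c39 (CPM, both log axes), one point per library, coloured by group. Libraries fall on either side of a gap in Cyp2c39 between 467 and 699.9 CPM, and all 6 groups have libraries on both sides.

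For 3 of 9 members examined, most or many of the genes that went most closely with them across animals lay on their own chromosome. The plan named only Cyp2b10 and Cyp3a11 for this, and the other members were picked in addition. The 3 of 9 is therefore not a rate over the members. After removing group means, 14 of the 20 genes with the largest correlation in size with Cyp2c23 were on its chromosome 19, as were 8 of 20 for Cyp2c39, where 3.53% of all genes tested lie on that chromosome. For Cyp3a13, which ranged from 34.5 to 230.2 CPM, 12 of 20 were on its chromosome 5, which holds 6.37%. For the other 6 it was 4 of 20 for Cyp2b9 and Cyp2f2, 3 for Cyp2b10 and 1 for Cyp2e1 (7.47% of genes lie on chromosome 7), and 2 for Cyp3a16 and 1 for Cyp3a11 on chromosome 5. The 3 genes most like Cyp2b10 over the 46 libraries were Htatip2 (r = 0.672), Tbl1x (0.667) and Itm2b (0.663), and those most like Cyp3a11 were Mtnr1a (0.531), Snrpd1 (0.513) and Tdo2 (0.513). These are the highest of all genes tested, given as a description.

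Between members, 326 of the 406 pairs had a positive correlation of their deviations from group means (46 libraries, median r = 0.286). With Benjamini-Hochberg adjustment over the 406 pairs, 146 positive and 7 negative ones were under 0.05 in a permutation test. Shares over pairs of all genes tested are not given here, so these counts are not read as particular to the members. The genes that went most closely with Cyp2b9 were not members: Hibadh (r = 0.876), Cat (0.86) and Bphl (0.857). Cyp2b9 and Cyp2b13, the pair with nearly the same promoter window, had r = 0.817 and rho = 0.749 (permutation p = 1e-05 for both, the smallest that 100000 permutations can give, adjusted p = 0.000226 for r), 0.783 without the 2 libraries farthest out, and 0.404 to 0.912 within the 6 groups. Reads of these genes can be confused, since they share transcript runs. Cyp2b9 and Cyp2b10 had r = 0.448 and rho = 0.285 (permutation p = 0.00957 and 0.075, adjusted p = 0.0305 for r), which was 0.292 without 2 libraries and so rested on them.

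The authors' deposited comparison tables extend the view to males and to genes without assignable counts, with log2 changes and adjusted p-values whose model and libraries were not stated. In the authors' deposited female table, 14 members were lower and 1 was higher with age on Control (23.5% of all genes called). On Low Amino Acid at 24 months the deposited table had 3 members higher and 0 lower (5.53% called, 2.87% higher), Cyp2e1 (0.70), Cyp2b9 (0.81) and Cyp2j6 (0.48), where the counts of all aged libraries called 0. On Low Isoleucine at 24 months the deposited table called 6 higher and 0 lower (9.24%, 4.03% higher), Cyp3a25 (0.98), Cyp2c38 (0.90), Cyp2c37 (1.0), Cyp2j9 (0.91), Cyp2b9 (0.80) and Cyp2e1 (0.53). Of the genes without assignable counts, the deposited female table had Cyp2c54 (-2.57), Cyp2d9 (-1.63), Cyp2d22 (-0.63) and Cyp2d10 (-0.59) lower with age on Control.

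In the authors' deposited table for males, 27 of the 29 members were listed. On Low Amino Acid at 6 months, the deposited table had 3 members higher and 2 lower (16.3% of all genes called): Cyp2c39 (1.91), Cyp2c38 (1.88) and Cyp3a59 (1.32) were up, and Cyp2f2 (-0.74) and Cyp2d26 (-0.66) were down. On Low Isoleucine at 6 months, the deposited table had 4 higher and 2 lower (21.1%), with Cyp2c39 at 3.01 and Cyp2c38 at 2.67 next to Cyp2b9, the female-biased gene, at 6.09, and Cyp2u1 at -1.34. At 24 months the deposited table called 0 members on either diet (0.0563% and 0.0676%). Between the ages of male controls it had 1 member higher, Cyp3a13 (1.32), and 4 lower (20%), Cyp1a2 (-0.93), Cyp2f2 (-0.69), Cyp2e1 (-0.47) and Cyp2d26 (-0.44) in the deposited table. In males the members called at 6 months on either diet, and between the ages, were near the share over all genes. The sex of the libraries behind the male values was not checked here. The left-out library labelled as a 6-month Low Isoleucine female held counts of a Y-linked gene. Male and female changes were not compared by a test.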

How the data were processed

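RNA of female livers had been sequenced from stranded, polyA-selected libraries, per the labels' protocols, and the submitters' processing notes name GRCm38.p5, R 3.4.3, edgeR and limma. The aligner was not given in the sources used here. The authors deposited estimated counts per gene, not normalized, and for each sex a table of log2 fold changes with p-values, whose libraries and model were not stated, and an F statistic, a score per gene over all of the authors' comparisons that was not used. Of 51912 lines of the gene table, the 17275 filled under all 47 female columns were used, and 45 columns of the males, which did not align with these lines, were not. For 17251 of the identifiers GENCODE gave a position.

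Estimated counts were rounded. All 29 members passed filterByExpr on the 6 groups. TMM scaling and edgeR's quasi-likelihood test (edgeR 4.0.16, R 4.3.3) were fitted once to 46 libraries and 12617 genes, with a mean per group. The test was checked on simulated data. Alternatives were DESeq2 1.42.0, limma 3.58.1 (voom with quality weights), RLE factors, no low-count filter, all 47 libraries, the compared groups alone, each library left out, and libraries of a shared title number summed. Permutation tests ran in Python 3.11.15 (numpy 2.4.6, pandas 2.3.3) and are two-sided.

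The members and lists were chosen with earlier results of these data known. Members named are a fixed list of 20, of which 15 qualified, those called (the 10 of smallest adjusted p), the 5 most abundant, the 5 most variable and those next to the threshold; of other lists, at most 5 called genes and 7 fixed ones. The ranges of Cyp2c39, the counts of members below the young range, and members named only from an alternative or the deposited tables were chosen after values were seen.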

Additional observations from a re-analysis of the deposited data

Results flagged for a closer look

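Of 174 pairs of a member and a group, 14 held a library so far from the others that its gap to the nearest passed Dixon's 95% limit, and chance flags about 1 in 20 groups. In the aged Low Isoleucine group, replicate 7 stood far above the rest for Cyp1a2 (658 CPM, next 210.1) and for Cyp3a11 (3311 CPM, next 851). In the young Low Isoleucine group, replicate 8 stood apart for 3 members: Cyp2b10 at 10.1 CPM (next 2.21), Cyp2u1 at 25.2 CPM (next 14.7) and Cyp2d26 at 556 CPM, the lowest (next 1107). Replicate 6 of that group had the highest Cyp2b9, 1197 CPM (next 1041).

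Aged control 6 was the highest for Cyp2f2 (263 CPM, next 103) and for Cyp2b10 (5.78 CPM, next 2.44). In the aged Low Amino Acid group, replicate 1 was highest for Cyp2f2 (83.3 CPM, next 29.1) and replicate 2 for Cyp1b1 (2.73 CPM, next 1.76). In the young Low Amino Acid group, single libraries stood apart for Cyp1b1 (replicate 1, 3.17 CPM, next 1.42), Cyp2c40 (replicate 7, 760.5 CPM, next 467), Cyp2j9 (replicate 4, 31.9 CPM, next 19.7) and Cyp3a25 (replicate 3, the lowest at 937 CPM, next 1324).

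The library labelled replicate 3 of the young Low Isoleucine females entered no comparison. For 21 of 29 members it lay within the range of the other 46. It was above all of them for Cyp2e1 (19636 CPM, highest elsewhere 16883), Cyp2f2 (372, 356) and Cyp2j9 (59.3, 41.8). It was below all of them for Cyp2b9 (119 CPM, lowest elsewhere 297), Cyp3a44 (13.5, 287), Cyp2c40 (2.48, 68.3), Cyp2b13 (0.296, 14.1) and Cyp3a16 (0.073, 18.4). The same library held 50.8 CPM of Kdm5d.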

How the results depend on the processing

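With DESeq2, the Low Amino Acid comparison with Control in aged mice called 1 member in place of 0, and 2 in place of 1 for age on Low Amino Acid. With limma-voom 2 were called between the restricted diets at 24 months in place of 0, and 3 for age on Low Amino Acid. The compared groups alone gave 0 in place of 4 for Low Isoleucine against Control at 24 months and 2 for age on Low Amino Acid. Without the 2 aged controls highest in acute phase genes, the counts were 1 (Low Amino Acid) and 1 (Low Isoleucine) against Control at 24 months and 7 in place of 12 for age on Control, and without the shallowest library, or with libraries of a shared title number summed, 3 in place of 5 for age on Low Isoleucine. Leaving out each library gave 9 to 17 for age on Control, 1 to 2 on Low Amino Acid and 3 to 6 on Low Isoleucine, and 0 to 1 and 1 to 6 for the diets against Control at 24 months. For the other 6 comparisons it gave 0 throughout. Of the values of single members under the other settings, 183 kept their sign and whether they were called, 33 lost the call, and none changed sign. The 183 include the changes of Cyp3a11 and Cyp2b10 with age on Control, which were called neither in the main fit nor under these settings. The member rule gave 29 members, 31 at 0.5 CPM and 26 at 5 CPM. No paired analysis was possible because replicate numbers follow the order of the samples and no title number is in 2 groups. Where a setting changed a count, the cause was not tested, and shares of all genes called under these settings are not given here. Members near 1 CPM rest on few counts, as do the changes of Cyp1b1, Cyp2b10 and Cyp2r1.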
